A study of Mus musculus with 10 samples.

Results

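Cells make cholesterol through the mevalonate pathway and sense it through a feedback loop, and 31 genes of this system were followed here in mouse embryonic kidney mesenchyme with and without the ligand Wnt9b. The members were 19 synthesis enzymes, 5 genes of sterol sensing, and 7 genes of sterol uptake, transport, export and storage, grouped by function. Earlier results of these data were known when they were chosen, although the choice used no measured value. Of the 31 genes, 29 were measured among 18193 genes in all. Acat2, an enzyme that makes the pathway's first intermediate, and Soat1, which esterifies cholesterol for storage, had no probe set annotated to that symbol alone and are not analysed here.

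The samples were 10 pools of metanephric mesenchyme, each from 25 to 30 isolated mesenchymes at stage E11.5 and each hybridised to its own Affymetrix array. The metanephric mesenchyme surrounds the ureteric bud, the epithelium that branches to form the collecting system and secretes Wnt9b, and the bud had been removed with trypsin and pancreatin. In 5 pools the genotype was Wnt9b-/- (mutant). The other 5 are labelled Wnt9b+/+ littermates (wild type), whereas the series' design text describes the controls as Wnt9b+/-, so their genotype is given here as the sample labels have it. All embryos came from intercrosses of Wnt9b+/- mice, and the labels do not say which part of the gene is missing. The replicate number of an array is only a name and pairs nothing.

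In this pathway, early enzymes turn acetyl units into mevalonate and then into isoprenoids, and later enzymes join the isoprenoids into squalene, close its rings and trim the product to cholesterol. When membrane sterol is scarce, Scap carries the SREBP transcription factors, encoded by Srebf1 and Srebf2, out of the endoplasmic reticulum, and they switch on the enzymes of synthesis. When sterol is plentiful, the Insig proteins hold Scap back, and oxysterol receptors switch on exporters such as Abca1. In the embryo, cholesterol is needed for growing membranes and also modifies and activates components of Hedgehog signalling.

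The sequences just before the transcription start of 6 members are shown as background. Whether they have a part in any difference between the groups was not tested. Idi1, Cyp51, Msmo1 and Nsdhl are the synthesis enzymes with the smallest p-values below, Hmgcs1 is the enzyme whose window matched the form of sterol regulatory element searched, and Abca1 is the exporter with the smallest p-value of all members. Each is the 150 bases upstream of the start on the gene's strand, from RefSeq (GRCm38.p6). Idi1 is at chr13:8885456-8885605 on the plus strand, Cyp51 at chr5:4104698-4104847 on the minus strand, and Msmo1 at chr8:64733579-64733728 on the minus strand. Nsdhl is at chrX:72918371-72918520 on the plus strand, Hmgcs1 at chr13:119690201-119690350 on the plus strand, and Abca1 at chr4:53159896-53160045 on the minus strand. Capitals mark matches, on either strand, to the sterol regulatory element form TCACNCCAC, to the CCAAT box bound by NF-Y and to the GGGCGG box bound by Sp1. These factors are known partners of SREBP. No base of these stretches lay in more than 1 match.
Idi1: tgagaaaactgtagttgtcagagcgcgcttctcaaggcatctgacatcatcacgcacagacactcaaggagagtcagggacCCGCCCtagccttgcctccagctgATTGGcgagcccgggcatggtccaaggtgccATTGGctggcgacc
Cyp51: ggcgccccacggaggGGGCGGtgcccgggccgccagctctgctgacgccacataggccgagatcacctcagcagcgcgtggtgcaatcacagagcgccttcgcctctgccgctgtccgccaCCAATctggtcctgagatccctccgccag
Msmo1: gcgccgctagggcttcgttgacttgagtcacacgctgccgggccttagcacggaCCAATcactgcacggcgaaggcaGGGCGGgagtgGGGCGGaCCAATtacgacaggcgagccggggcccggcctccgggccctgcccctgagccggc
Nsdhl: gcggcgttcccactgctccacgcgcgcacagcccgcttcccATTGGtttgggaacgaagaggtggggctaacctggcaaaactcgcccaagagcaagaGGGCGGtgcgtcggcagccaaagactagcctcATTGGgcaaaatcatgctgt
Hmgcs1: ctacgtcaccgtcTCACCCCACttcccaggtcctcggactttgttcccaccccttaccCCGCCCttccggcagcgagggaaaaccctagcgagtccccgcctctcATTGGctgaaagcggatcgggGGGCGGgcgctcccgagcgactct
Abca1: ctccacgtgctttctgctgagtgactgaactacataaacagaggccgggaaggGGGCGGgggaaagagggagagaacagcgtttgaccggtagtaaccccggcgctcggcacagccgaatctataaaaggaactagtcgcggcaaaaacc

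Promoter windows of 300 bases, 250 before the start and 50 after it, were found for 24 of the 31 members, 16 of them synthesis enzymes. CCAAT lay in a window of 15 of the 16 enzymes (93.8%), against 41.1% of the 27025 genes with a window and 42.0% of those also measured on the arrays. GGGCGG lay in 14 of 16 (87.5%), against 38.2% and 57.3%. The element form TCACNCCAC lay in 1 of 16, that of Hmgcs1, against 1.44% of all genes. Of the 8 sensing, transport, export and storage genes with a window, 6 held CCAAT and all 8 held GGGCGG. A match describes these letters only, and other forms of the element were not searched.

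None of the 29 measured members was called between mutant and wild type at an adjusted p under 0.05 (limma, Benjamini-Hochberg over all genes), where 0.0055% of all genes were. The smallest adjusted p among the members was 0.691. What the members showed was a small lean in opposite directions by role. Of the 18 measured synthesis enzymes, 15 were lower in the mutant (83.3%, against 45.1% of all genes), with a median difference of -0.13 in log2(signal + 1), the scale of all differences given here (log2 signal for short). Of the 6 transport and export genes, 5 were higher, as were 9991 of all 18193 genes, with a median difference of 0.19. The 5 sensing genes were split, with 3 lower and 2 higher and a median of -0.14, and the median over all genes was 0.02.

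At an unadjusted p under 0.05 there were 4 synthesis enzymes on the lower side, where 2.08% of all genes were, and 1 exporter on the higher side, where 3.41% were. In either direction this made 5 of the 29 members, where 5.49% of all genes passed. The count was 2 without mutant replicate 5 (Abca1 and Scarb1, so no enzyme), where 5.29% of all genes passed. It was also 2 without wild-type replicate 5 (Abca1 and Cyp51), where 5.13% passed. It was 3 without mutant replicate 1 or wild-type replicate 1, 3 or 4, where 4.82% to 5.18% passed. The groups did not overlap for 3 enzymes, all lower (0.555% of all genes), and for no member on the higher side (0.654% of all genes). On leaving out each array, the number of members without overlap was 3 or 4 except without mutant replicate 3. Without that array, the mutant array nearest to wild type by the enzyme count below, it was 6 (20.7%). There 2.09% of all genes did not overlap in either direction, and 1.78% to 2.59% over all these runs.

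The arrays limit what can be said of size. The 95% intervals of the 29 differences had a median half-width of 0.31, and they ran at the extremes from -0.90 for Msmo1 to 0.88 for Abca1. No member's interval reached a log2 difference of 1 in either direction. Differences of the size seen for most members were thus not detectable with 5 arrays per group, and the intervals do not show that those members were equal.

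**Figure D1:**
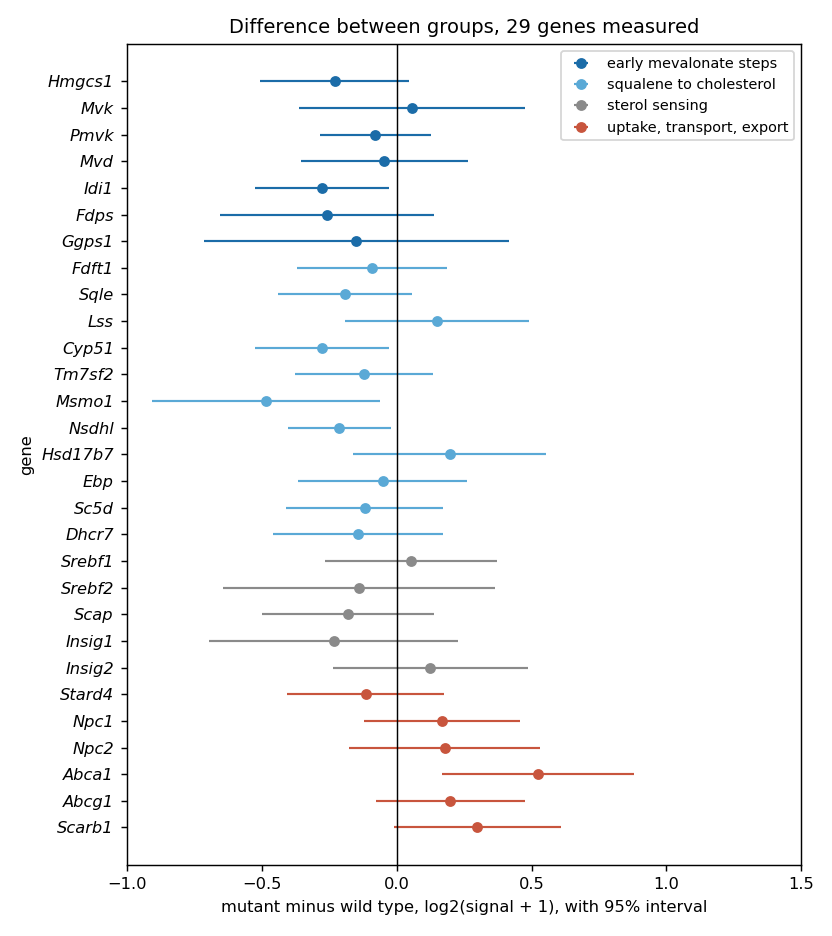
Difference between mutant and wild type in log2(signal + 1) for the 29 measured genes, with 95% intervals from the limma fit, coloured by role. Of the synthesis enzymes, 15 of 18 points lie left of 0, and 5 of 6 transport and export genes lie right of it, while most intervals cross 0.

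In the early, mevalonate part of the pathway, 6 of 7 measured enzymes were lower in the mutant (median -0.15). Idi1, the isomerase that makes the activated isoprene unit ready for chain building, had signals of 907, 1108, 897, 847 and 1075 in wild-type replicates 1 to 5 and of 803, 822, 744, 842 and 765 in the mutant replicates. Every mutant array was below every wild-type array, although the nearest values, 842 and 847, were close, and the highest wild-type values were on replicates 2 and 5. The difference was -0.27 (SE 0.11, 95% interval -0.52 to -0.03, 1.21-fold lower, limma adjusted p = 0.880). Its second probe set gave -0.30.

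Hmgcs1, which joins acetyl units into the precursor of mevalonate, is a main target of SREBP. Its signals were 4757, 4942, 5407, 5187 and 4369 in wild type and 4271, 3773, 5100, 3586 and 4414 in the mutant. The groups overlapped through mutant replicates 3 and 5, and the difference was -0.23 (SE 0.12, interval -0.51 to 0.05, limma adjusted p = 0.941). All 5 of its probe sets were on the lower side, from -0.23 to -0.04.

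Fdps, which builds farnesyl diphosphate, differed by -0.26 (SE 0.18), with signals of 1201 to 1753 in wild type (median 1565) and 988 to 1690 in the mutant (median 1324). Its lowest arrays in both groups had high 18S signal, a feature taken up below. Pmvk, a mevalonate pathway kinase, differed by -0.08 (SE 0.09) and had the narrowest spread of the early enzymes, with SDs of 0.07 in both groups (n = 5). Mvd, the decarboxylase of the pathway, was at -0.05 (SE 0.14), and Mvk, mevalonate kinase, was the exception at 0.06 (SE 0.19), with its lowest and highest signals, 161 and 322, both in the mutant. Ggps1 makes the geranylgeranyl group that anchors small GTPases and lies on a side branch. It differed by -0.15 (SE 0.25) and varied most among the mutant arrays, from 293 to 692.

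In the part from squalene to cholesterol, 9 of 11 enzymes were lower (median -0.12). Cyp51, the demethylase that acts on lanosterol, the first sterol of the pathway, had signals of 737, 632, 676, 794 and 614 in wild type and of 581, 549, 608, 602 and 506 in the mutant. The groups did not overlap, with 608 in mutant replicate 3 just under 614 in wild-type replicate 5. The difference was -0.27 (SE 0.11, interval -0.52 to -0.03, 1.21-fold lower, limma adjusted p = 0.880). Its other probe sets gave -0.32 and -0.26, so all 3 were on the lower side.

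Msmo1, Nsdhl and Hsd17b7 encode enzymes that act in turn to remove methyl groups from the sterol ring. Nsdhl had signals of 570, 580, 619, 603 and 607 in wild type and of 525, 512, 496, 527 and 510 in the mutant. It had the tightest groups of all members, with wild-type log2 signals of 9.22 ± 0.05 (SD, n = 5), mutant ones of 9.01 ± 0.04 (SD, n = 5), and a clear gap between them. The difference was small, at -0.21 (SE 0.09, interval -0.40 to -0.02, 1.16-fold lower, limma adjusted p = 0.880). The moderated SE exceeds what these SDs alone would give because limma draws each gene's variance towards that of the other genes.

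Msmo1 had signals of 786, 692, 743, 561 and 715 in wild type and of 360, 551, 723, 502 and 421 in the mutant. Mutant replicate 3 lay within the wild-type range, and the other 4 mutant arrays lay below all wild-type arrays. The difference, -0.48 (SE 0.19, interval -0.90 to -0.06, 1.40-fold lower, limma adjusted p = 0.880), was the most negative of the members, and the dim second probe set gave -0.58. Hsd17b7 went the other way on its brightest probe set, at 0.20 (SE 0.16), but its other 3 probe sets gave -0.35, -0.32 and -0.15. Its direction therefore depends on the probe set.

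Sqle, squalene epoxidase, a control point of the pathway, had signals of 761 to 947 in wild type (median 821) and 644 to 836 in the mutant (median 738). The groups overlapped through mutant replicate 3, and the difference was -0.19 (SE 0.11, interval -0.44 to 0.06). Dhcr7, the reductase of the last step, was at -0.14 (SE 0.14), Tm7sf2, another sterol reductase, at -0.12 (SE 0.11), and the desaturase Sc5d at -0.12 (SE 0.13). Fdft1, squalene synthase, was at -0.09 (SE 0.12) and the isomerase Ebp at -0.05 (SE 0.14). Lss, which closes the rings to give lanosterol, differed by 0.15 (SE 0.15) by its brightest probe set, and the others gave -0.38 and 0.06.

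Over all probe sets of the synthesis enzymes, 34 of 42 were on the lower side. Many of these read the same gene on the same arrays, so the count is not separate evidence. The share over all probe sets is not given here. Of the 20 members with more than 1 probe set, all probe sets of 11 lay on the same side of 0 and those of 9 were split.

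**Figure D2:**
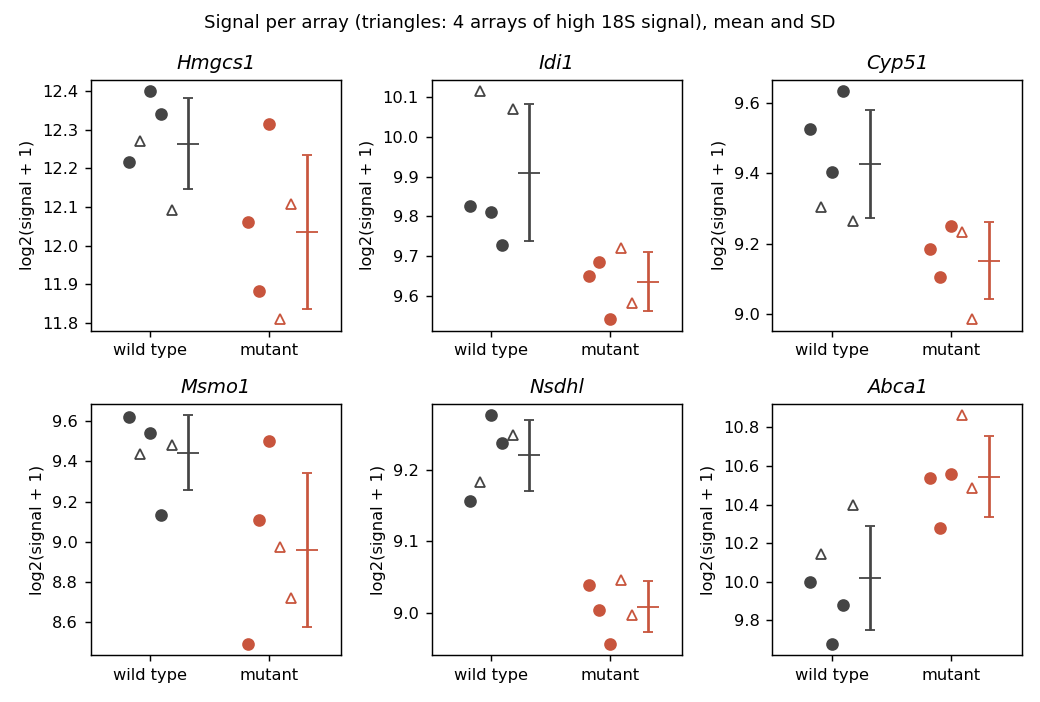
Log2(signal + 1) of 5 synthesis enzymes and the exporter Abca1 on each array, wild type in grey and mutant in red, with the mean and SD (n = 5) at the right of each group. Triangles mark the 4 arrays of high 18S signal. Idi1, Cyp51 and Nsdhl show no overlap, and Abca1 overlaps through wild-type replicate 5.

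Seen array by array, the lean of the enzymes did not come from a single pool. Of the 18 enzymes, the number above their own median over the 10 arrays was 11, 14, 12, 13 and 11 in wild-type replicates 1 to 5. It was 5, 7, 9, 3 and 5 in mutant replicates 1 to 5, so the groups did not overlap and mutant replicate 3 was the nearest to wild type. Over all genes the same share ran from 43.8% to 52.1% in wild-type arrays and from 44.2% to 57.9% in mutant arrays. The mean log2 signal of the 18 enzymes was 9.04 ± 0.05 in wild type and 8.91 ± 0.04 in the mutant (SD over 5 arrays each). The ranges were 8.99 to 9.11 and 8.87 to 8.98, and the difference was -0.13.

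**Figure D3:**
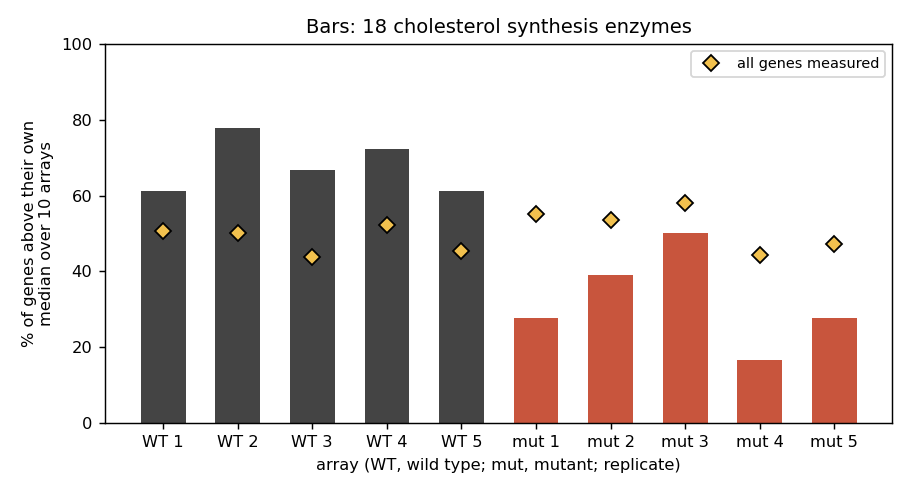
Share of the 18 synthesis enzymes above their own median over the 10 arrays, as bars for each array, with the same share over all genes measured as diamonds. The bars stand at 61.1% to 77.8% in wild-type arrays and at 16.7% to 50% in mutant arrays.

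Sterol sensing genes showed wide spreads. Insig1, the feedback protein that SREBP itself switches on, had signals of 759, 739, 866, 600.4 and 902 in wild type and of 470.5, 696, 535, 994 and 676 in the mutant. Its mutant values spanned the wild-type range and beyond, with the highest signal of all on mutant replicate 4 (difference -0.23, SE 0.21, interval -0.69 to 0.23). Insig2, its relative, was at 0.12 (SE 0.16).

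Srebf2, which encodes the SREBP mainly in charge of cholesterol genes, had signals of 496, 295, 296, 480 and 391 in wild type and of 384, 381, 476, 303 and 238 in the mutant. Both groups held high and low arrays, and the difference was -0.14 (SE 0.23, interval -0.64 to 0.36). It was -0.0038 without mutant replicate 5 and -0.25 without mutant replicate 3. Srebf1, whose products mainly drive fatty acid genes, was at 0.05 (SE 0.14), where wild-type replicate 2 stood at 836 and the remaining 4 wild-type pools at 562 to 613. Scap, the escort of the SREBPs, was at -0.18 (SE 0.14), and its dim second probe set at -0.49.

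Among the genes that move sterol, Abca1, the pump that loads cholesterol onto apolipoproteins, had the smallest p of all members. Its signals were 1023, 1130, 820, 940 and 1348 in wild type and 1486, 1242, 1506, 1860 and 1433 in the mutant. Wild-type replicate 5 lay above mutant replicate 2, and otherwise the mutant arrays were higher. The difference was 0.52 (SE 0.16, interval 0.17 to 0.88, 1.44-fold higher, limma unadjusted p = 0.00834 and adjusted p = 0.691). The other probe sets of Abca1 were much dimmer, and they gave 0.08 and -0.14.

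Scarb1, a receptor for high-density lipoprotein, had signals of 301, 320, 278, 274 and 213 in wild type and of 335, 392, 369, 305 and 298 in the mutant. The groups overlapped through wild-type replicates 1 and 2 and mutant replicates 4 and 5, and the difference was 0.30 (SE 0.14, interval -0.01 to 0.61, limma adjusted p = 0.908). All 3 of its probe sets were on the higher side, at 0.30, 0.20 and 0.10. Abcg1, a further exporter, was at 0.20 (SE 0.12).

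Npc2 and Npc1, which release cholesterol from lysosomes, were at 0.18 (SE 0.16) and 0.17 (SE 0.13). Stard4, a carrier between membranes whose gene responds to SREBP, was the exception of this set at -0.11 (SE 0.13), with its other probe sets at 0.13 and -0.43. The mean log2 signal of the 6 genes was 9.16 ± 0.07 in wild type and 9.37 ± 0.03 in the mutant (SD over 5 arrays each), with ranges of 9.07 to 9.24 and 9.33 to 9.40. By this mean, no mutant array lay within the wild-type range. By the number of the 6 genes above their own median, the groups met. That number was 4 in wild-type replicate 2 and in mutant replicates 2 to 5, and 5 in mutant replicate 1. In wild-type replicates 1, 3, 4 and 5 it was 2, 1, 1 and 1.

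**Figure D4:**
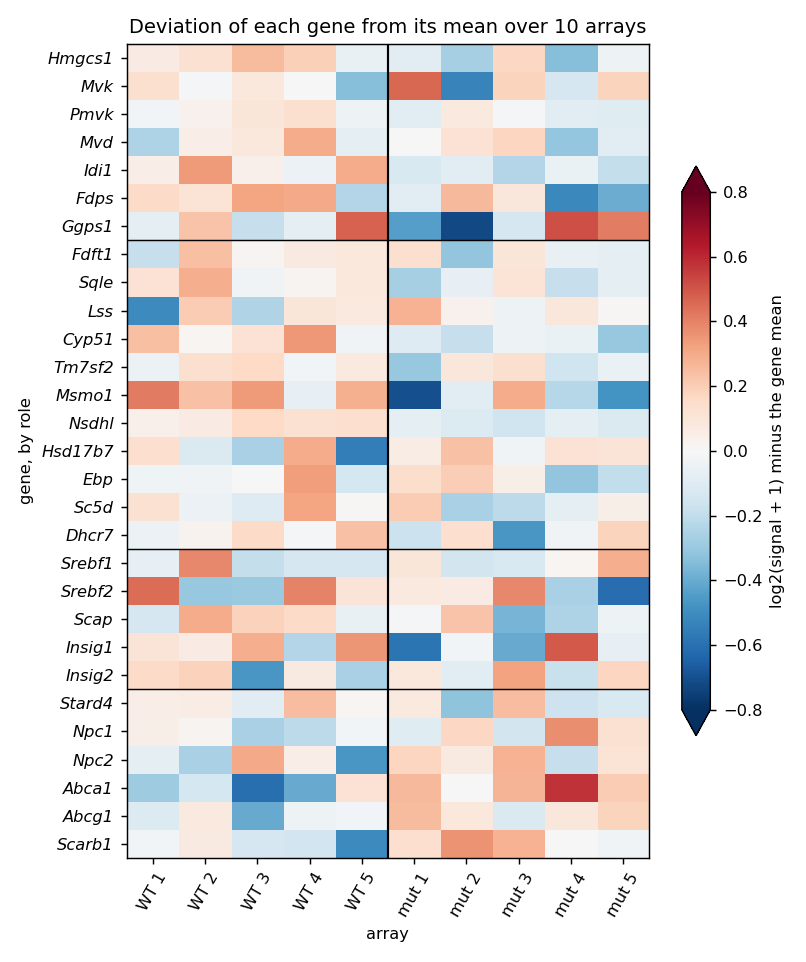
Log2(signal + 1) of each of the 29 genes on each array as the deviation from that gene's mean over the 10 arrays, red above and blue below, with the colour scale ending at 0.8. Lines separate wild type from mutant and the roles, which from the top are early mevalonate steps, squalene to cholesterol, sterol sensing, and uptake, transport and export. Nsdhl has the most even rows within each group, and Insig1 and Srebf2 vary within both.

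The arrays also differed in ways the genotype does not explain. Signal from the 5' end of 18S ribosomal RNA was 1975 to 2587 on 4 arrays, mutant replicates 4 and 5 and wild-type replicates 2 and 5, and at 92.4 to 322 on the other 6. Each set held equal numbers of mutant and wild-type arrays. Within the high-18S arrays 14 of 18 enzymes were lower (77.8%, against 51.5% of all genes), with a median of -0.18. Within the others 13 of 18 were lower (72.2%, against 42.7%), with a median of -0.14. The same direction in both sets was seen for 10 of 18 enzymes on the lower side (55.6%, against 24.0% of all genes) and for 1 on the higher side. The 5 transport and export genes that were higher were so in both sets (83.3% of the 6, against 29.8% of all genes). In the high-18S set and in the others, Idi1 was at -0.44 and -0.16, Cyp51 at -0.17 and -0.34, Nsdhl at -0.19 and -0.22, Msmo1 at -0.61 and -0.40, and Abca1 at 0.40 and 0.61. These 5 genes are those at an unadjusted p under 0.05 over the same 10 arrays. Their matching signs in the 2 sets are therefore not separate evidence. For the sensing genes the medians were 0.01 and -0.01, so their pooled median of -0.14 was not seen within either set.

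Markers of the cell types that the pools could hold were also compared. Over all 18193 genes, 8202 were lower and 9991 higher in the mutant. All 10 nephron progenitor markers were lower in the mutant (median -0.70). Of these, 8 had an unadjusted p under 0.05 (limma), as did 2.08% of all genes on the lower side. Their summed signals were 8601 to 10381 in wild type and 4089 to 7775 in the mutant. Macrophage markers were higher in 11 of 12 (median 0.34), with summed signals of 1635 to 2326 and 1601 to 3019, and endothelial markers in 10 of 10 (median 0.14), with 3303 to 4377 and 3443 to 4635. Neuron and neural crest markers were higher in 5 of 7 (median 0.27, summed signals 567 to 889 and 747 to 1284), and renal stroma markers in 5 of 7 (median 0.18, 11210 to 13738 and 10814 to 15872). Ureteric bud markers were higher in 7 of 11 (median 0.11, 1891 to 3360 and 1409 to 4240), and erythroid markers in 5 of 8 (median 0.06, 26823 to 55355 and 29532 to 48831). An unadjusted p under 0.05 was reached by 2 neural, 2 stroma and 1 macrophage marker and by no endothelial, bud or erythroid marker. Those that reached it were higher in the mutant, as were 3.41% of all genes at that level. No marker was called. A log2 signal of 6, near the array medians of 5.99 to 6.30, served as a mark of low signal and is not a measured background. Mean log2 signals under 6 were found for 3 bud, 1 macrophage, 1 erythroid and 2 neural markers and for none of the others. Whether the members' differences come from these cell types was not tested. In pooled tissue, fewer cells of a type and less RNA per cell cannot be told apart. The 10 progenitor and 7 stroma markers measured, which define the labelled tissue, were all above that level.

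Wnt9b itself was dim, with signals of 78.2 to 99.7 in wild type and 41.8 to 106 in the mutant (difference -0.24, SE 0.24, limma adjusted p = 0.996). Since the bud that makes it had been removed, and it is not stated whether its probe set lies inside the deletion, this does not check the labels.

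The wider pathway was followed in 70 further genes, of which 65 were measured, and none of them was called. At an unadjusted p under 0.05, 1 was lower (1.54%, against 2.08% of all genes) and 2 were higher (3.08%, against 3.41%), so neither share exceeded that of all genes. Of 13 genes of fatty acid synthesis and desaturation that SREBP drives, 8 were lower (median -0.09). Elovl6, which lengthens fatty acids, was at -0.41 (SE 0.11, no overlap between groups, limma adjusted p = 0.551), while Fasn, fatty acid synthase, was at -0.16 (SE 0.12), Scd1, a desaturase, at -0.19 (SE 0.16), and Elovl5, an elongase, at 0.19 (SE 0.11). Of 12 genes of the prenyl, dolichol and ubiquinone branches, which use the same isoprenoids, 8 were lower with a median of -0.02, and the smallest p was that of Pdss2, an enzyme of ubiquinone side chains, at -0.26 (SE 0.12). Of 11 genes of SREBP processing and sterol-regulated degradation, 7 were higher with a median of 0.05, and the smallest p was that of Erlin1 at -0.11 (SE 0.11).

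Of 10 genes of oxysterol receptors and oxysterol enzymes, 7 were higher (median 0.13). Rxra, the partner of the oxysterol receptors, was at 0.25 (SE 0.11, no overlap, limma adjusted p = 0.887). Nr1h3, an oxysterol receptor, was dim and at -0.17 (SE 0.32). Of 19 further genes of sterol handling, 13 were higher (median 0.11), and Pltp, a phospholipid transfer protein, was at 0.40 (SE 0.14, limma adjusted p = 0.791).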

How the data were processed

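The deposited table holds probe-set intensity values on a linear scale from Affymetrix Mouse Genome 430 2.0 arrays. The mean after trimming 2% at each end was 250.0 on every array, so the authors had scaled them; the method that summarised the probes is not given in these sources. Array medians were 5.99 to 6.30 in log2(signal + 1), and no further normalization was applied. Arrays correlated at 0.915 to 0.955.

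Of 45101 probe sets, 34945 had 1 gene symbol, controls left out, in the platform annotation, updated through RefSeq gene identifiers where possible (34741). Where a gene had several, the brightest by its mean over the 10 arrays stood for it. Groups were compared over all 18193 genes with limma 3.58.1 (R 4.3.3, lmFit and eBayes, two-sided, Benjamini-Hochberg adjustment). The fit was also run on simulated, independent genes with planted differences larger than any seen for the members. That run does not bear on differences of the members' size. The labels state separate RNA pools for each array.

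All measured members are named, and from each further pathway list the gene with the smallest p, those at an unadjusted p under 0.05, and, added after their values were seen, Fasn, Scd1, Elovl5 and Nr1h3. The members and lists were chosen with earlier results of these data known. Alternatives covered probe sets, a filter on the dimmest 40% of genes, quantile normalization, a pseudocount of 16, trend and robust moderation, blocks for 18S signal and for shared title wording, each 18S set alone, and leaving out arrays.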

Additional observations from a re-analysis of the deposited data

Results flagged for a closer look

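The gap of the most extreme array was set against the range of its 5-array group, for the 29 members and for the mean of each of the 3 roles, 64 groups of values in all. Chance marks about 1 in 20, or 3.2 here, and 1 was marked. Srebf1 had a log2 signal of 9.71 in wild-type replicate 2, while the remaining 4 wild-type pools lay at 9.14 to 9.26. Without that array the Srebf1 difference was 0.16 in place of 0.05.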

How the results depend on the processing

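No member was called under any of the 20 alternatives, where the smallest limma adjusted p was 0.324, for Abca1 with trend and robust moderation. At an unadjusted p under 0.05, 5 of the 29 members were reported, where 5.49% of all genes passed. With probe sets averaged per gene the count was 3 (5.55% of all genes). Without the 2 arrays of brightest hybridisation controls (mutant replicate 2 and wild-type replicate 3) it was 2 (5.73% of all genes). Within the high-18S and the other arrays it was 2 and 1 (6.01% and 4.59% of all genes). On leaving out each array it was 2 to 5 (4.82% to 6.15% of all genes). The count without overlap, 3 as reported, was 17 (58.6%, against 36.1% of all genes) within the high-18S arrays and 5 (17.2%, against 9.9%) within the others. On leaving out each array it was 3 to 6, where 1.78% to 2.59% of all genes did not overlap. The median of the synthesis enzymes was -0.18 within the high-18S arrays and -0.17 to -0.11 on leaving out each array, and that of the sensing genes was 0.0055 and -0.0073 within the sets and -0.17 to -0.012 on leaving out each array. The median of the transport genes moved by less than its spread between arrays in all 20.

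Of 29 members, 15 kept their sign throughout. Signs turned within the high-18S arrays for Ggps1 (0.11), Lss (-0.090), Sc5d (0.0066) and Insig1 (0.0055), and within the others for Mvk (-0.036), Mvd (0.051), Fdft1 (0.000276) and Ebp (0.029). With the mean of probe sets they turned for Fdft1 (0.31), Lss (-0.055) and Hsd17b7 (-0.16). Single probe sets turned the sign of Ggps1 (0.17), Fdft1 (1.62, dim), Lss (-0.38), Hsd17b7 (-0.35, -0.15 and -0.32), Sc5d (0.16), Insig2 (-0.0083), Stard4 (0.13), Npc2 (-0.032) and Abca1 (-0.14). On leaving out each array the ranges that crossed 0 were -0.11 to 0.026 for Ebp, -0.30 to 0.013 for Ggps1, -0.11 to 0.027 for Mvd, -0.049 to 0.20 for Mvk and -0.012 to 0.16 for Srebf1. The cause of these changes was not tested. With each array left out, Srebf2 ran from -0.25 to -0.0038 and Dhcr7 from -0.20 to -0.043, without a change of sign. The block for arrays whose titles share wording also gave 5 members at an unadjusted p under 0.05 (6.13% of all genes). Of these 5, 4 were among those reported, with Scarb1 in place of Nsdhl. No pairing is stated in the labels.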
